A study of Mus musculus with 6 samples.

Results

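Cultured muscle stem cells (MuSCs) with a conditional deletion of the RNA-binding protein QKI (QKI-cKO) were compared with control MuSCs (QKI-ctrl). In QKI-cKO, 4 genes that restrain proliferation, *Cdkn1c*, *Cdkn2d*, *Ccng2* and *Tob1*, had higher transcript levels. *Rbl1*, which is also a brake on the cell cycle, and *Depdc1a*, a mitotic gene, had lower levels. These 6 genes of 398 in the authors' deposited table were picked by name from that table. It keeps only genes that the authors marked as different between the groups, also where the difference is small. They were therefore selected on the contrast described here, and their values are given as a description with no test. *Cdkn1c* was 1.90-fold higher in QKI-cKO MuSCs, while *Cdkn2d*, *Ccng2* and *Tob1* were 1.26- to 1.36-fold higher. In contrast, *Rbl1* was at 0.714 and *Depdc1a* at 0.604 of the QKI-ctrl level.

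RNA was sequenced from MuSCs of 3 QKI-cKO and 3 QKI-ctrl mice. QKI-cKO mice were QKI 2lox/2lox;Pax7 CreERT2/+ and their QKI-ctrl littermates QKI 2lox/2lox;Pax7 +/+, on a C57BL/6 background, males and females mixed. Both genotypes carried loxP sites around exon 2 of the gene and both received 4-hydroxytamoxifen once a day for 5 d at an age of 6 to 8 wk. The Cre recombinase, expressed from the *Pax7* locus, was present only in QKI-cKO mice, so the Cre allele and the deletion cannot be told apart in this comparison. GEO's labels call the groups KO and WT, although the WT animals carried the floxed alleles. MuSCs were sorted as living ITGA7+/CD45-/CD11b-/Sca1- cells, with a CD31 antibody also named for negative selection, and grown for 72 h before polyadenylated RNA was taken, so the values describe activated cells in culture.

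Each gene has 1 pooled value per group (FPKM, sequenced fragments scaled to the length of the transcript and to the size of the library) and no value per replicate. No SD, interval or test between replicates could be computed, and the depth behind each value is unknown. The targeted gene *Qk* was listed at 262 FPKM in QKI-cKO and 128 FPKM in QKI-ctrl (2.05-fold). These values also count exons outside the deleted part and so do not check the deletion. The study checked the loss of exon 2 by RT-qPCR in the MuSCs used for sequencing. The table does not name its columns by genotype: they were assigned from the direction that the study gives for muscle differentiation genes, and every direction given here rests on that assignment. Of the sort and stem cell markers, *Itga7* (145 FPKM in QKI-cKO, 237 FPKM in QKI-ctrl), *Vcam1* and *Heyl* had values, each lower in QKI-cKO. The other 13 of 16 MuSC and myoblast markers, *Pax7* and *Myod1* among them, had no value. Of all genes in the table, 42.7% were lower in QKI-cKO.

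A dividing cell passes from G1 into S phase when cyclin-dependent kinases (CDKs) inactivate the pocket proteins, which otherwise hold E2F transcription factors and their target genes in check. CDK inhibitors block these kinases, and their levels are known to increase as myoblasts leave the cell cycle to differentiate. MuSCs rest outside the cell cycle in uninjured muscle, enter it after injury, and either differentiate or return to rest. Genes of mitosis are switched on later in the cycle, largely through a promoter element named CHR (cell cycle genes homology region), which recruits the DREAM and MuvB complexes.

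Both CDK inhibitors of the table were higher in QKI-cKO. *Cdkn1c* (ENSMUSG00000037664.13) encodes an inhibitor of the CIP/KIP family and is expressed mainly from the maternal allele. It lies on chromosome 7 of GRCm38 from 143458339 to 143461050. *Cdkn1c* was listed at 1.46 FPKM in QKI-cKO and 0.767 FPKM in QKI-ctrl, a log2 ratio of 0.93. This was the largest relative difference of the 6 genes and, with 0.691 FPKM, the smallest in absolute terms. With 1 FPKM added to both groups the log2 ratio of *Cdkn1c* was 0.48 and no longer the largest, that of *Depdc1a* being -0.64. *Cdkn1c* had the lowest level of the 6 in each group. An annotated antisense transcript, *Gm44732*, overlaps 892 bases of the gene, and the library kit kept the strand, but whether the counting used it is not given in the sources used here. The part of *Gm44732*, which had no value in the table, was not tested.

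*Cdkn2d* (ENSMUSG00000096472.2; chromosome 9, 21288410 to 21291407) encodes an inhibitor of the INK4 family, which binds the CDK partners of the D-type cyclins. *Cdkn2d* was listed at 13.3 FPKM in QKI-cKO and 9.79 FPKM in QKI-ctrl, a log2 ratio of 0.44. The level of *Cdkn2d* was 9.10 times that of *Cdkn1c* in QKI-cKO and 12.8 times in QKI-ctrl. The more abundant CDK inhibitor therefore had the smaller ratio between the groups. The other 6 of 8 genes in the list of CDK inhibitors, which includes *Cdkn1a* and *Cdkn1b*, had no value in the table.

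*Ccng2* and *Tob1* restrain growth by other routes. *Ccng2* (ENSMUSG00000029385.14; chromosome 5, 93267257 to 93276231) encodes cyclin G2, an unconventional cyclin that is known to accumulate in cells leaving the cell cycle. *Ccng2* was listed at 10.04 FPKM in QKI-cKO and 7.47 FPKM in QKI-ctrl (1.34-fold, log2 ratio 0.43). *Tob1* (ENSMUSG00000037573.5; chromosome 11, 94211454 to 94215495) belongs to the TOB/BTG family of antiproliferative proteins, which bring deadenylases to mRNAs. *Tob1* was listed at 20.1 FPKM in QKI-cKO and 15.99 FPKM in QKI-ctrl (1.26-fold, log2 ratio 0.33). It had the largest absolute difference of the 4 higher genes, 4.13 FPKM, and the smallest ratio. None of the relatives of *Ccng2* and *Tob1* in the lists of cyclins G and I and of the TOB and BTG family had a value.

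*Rbl1* (ENSMUSG00000027641.13; chromosome 2, 157145893 to 157204534) encodes p107, a pocket protein that represses E2F targets and is itself made from an E2F-responsive promoter as cells approach S phase. *Rbl1* was listed at 13.1 FPKM in QKI-cKO and 18.3 FPKM in QKI-ctrl, a log2 ratio of -0.49. A processed pseudogene without a value, *Gm14277*, overlaps 360 bases of *Rbl1* on the other strand. By its role *Rbl1* is a brake on the cell cycle rather than a mitotic gene, so the 5 brakes did not share a direction. *Depdc1a* (ENSMUSG00000028175.15; chromosome 3, 159495433 to 159529955) encodes a DEP domain protein with a role in mitotic progression in human cells, and it is the only mitotic gene of the 6. *Depdc1a* was listed at 5.51 FPKM in QKI-cKO and 9.12 FPKM in QKI-ctrl, a log2 ratio of -0.73. Its difference of -3.61 FPKM was smaller in absolute terms than that of *Rbl1* (-5.24 FPKM).

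**Figure D1:**
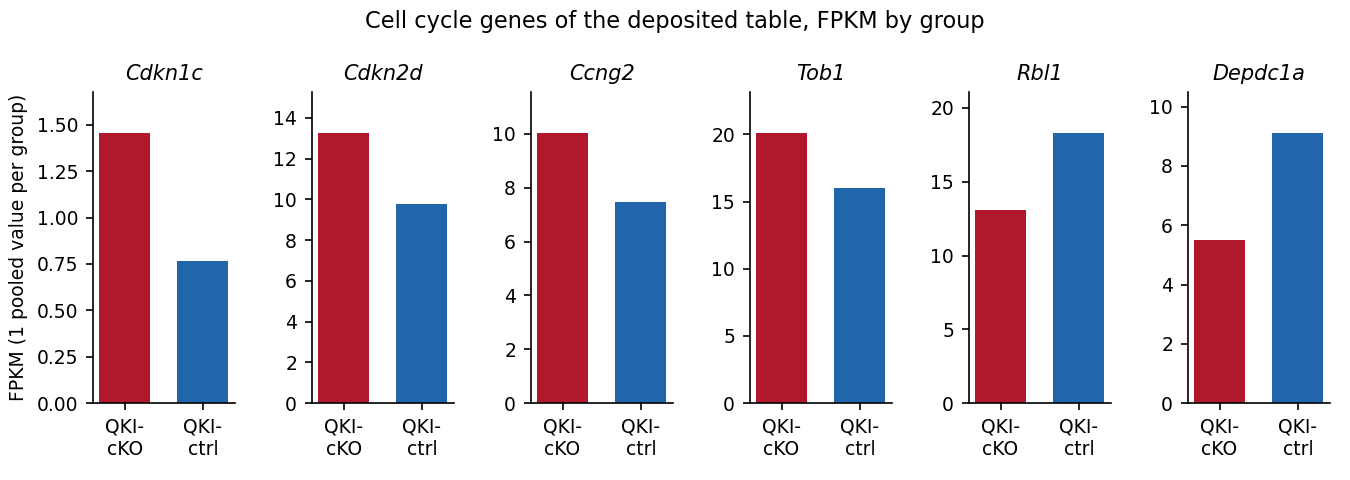
FPKM of the 6 genes in QKI-cKO (red, left bar of each panel) and QKI-ctrl (blue, right bar), with 1 pooled value per group, no error bars and an axis of its own for each gene, starting at 0. *Cdkn1c*, *Cdkn2d*, *Ccng2* and *Tob1* have the taller bar in QKI-cKO, and *Rbl1* (13.1 beside 18.3 FPKM) and *Depdc1a* (5.51 beside 9.12 FPKM) in QKI-ctrl.

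The order of levels differed between the groups. In QKI-cKO it ran, from high to low, *Tob1*, *Cdkn2d*, *Rbl1*, *Ccng2*, *Depdc1a* and *Cdkn1c*. In QKI-ctrl it ran *Rbl1*, *Tob1*, *Cdkn2d*, *Depdc1a*, *Ccng2* and *Cdkn1c*. *Rbl1* thus had rank 3 in QKI-cKO and rank 1 in QKI-ctrl, and *Ccng2* and *Depdc1a* changed places. Without values per replicate it is not known which neighbours in these orders differ beyond the spread between replicates. *Cdkn2d* and *Rbl1* were nearly level in QKI-cKO.

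Ratios between 2 genes of the same group do not depend on how the libraries were scaled to each other. The direction of the ratios of a higher to a lower gene, and of the sums, follows from how the genes were chosen. Nothing is read from that direction. The ratio of *Cdkn2d* to *Rbl1* was 1.01 in QKI-cKO and 0.534 in QKI-ctrl, and that of *Tob1* to *Rbl1* was 1.54 in QKI-cKO and 0.873 in QKI-ctrl. For *Ccng2* to *Depdc1a* the ratio was 1.82 in QKI-cKO and 0.819 in QKI-ctrl. Relative to *Depdc1a*, the higher genes differed between the groups by 2.08-fold (*Tob1*) to 3.14-fold (*Cdkn1c*), while *Rbl1* differed by 1.18-fold. Summed over the 4 higher genes, the level was 44.9 FPKM in QKI-cKO and 34.0 FPKM in QKI-ctrl (1.32-fold), and for *Rbl1* and *Depdc1a* together it was 18.6 FPKM in QKI-cKO and 27.4 FPKM in QKI-ctrl (0.677-fold). In bulk RNA, fewer cells of a type and less RNA per cell cannot be told apart.

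Of the 6 genes, 4 were higher (66.7%), and 57.3% of all genes in the table were higher in QKI-cKO. The other 2 were lower, beside 42.7% of the table. This split follows from how the genes were chosen and nothing is read from it. The differences were mostly small for this table. The ratios of *Cdkn2d*, *Ccng2* and *Tob1* were below the median of the higher genes, which was 1.46-fold, and that of *Tob1* was close to the smallest ratio of any higher gene, 1.22-fold. Of the 394 genes above 0 FPKM in both groups, 4.6% had a smaller change than *Tob1*, 25.4% than *Ccng2*, 27.4% than *Cdkn2d* and 36.8% than *Rbl1*. *Cdkn1c* and *Depdc1a* stood higher, with 77.2% and 63.7% of genes below them. *Cdkn1c* and *Depdc1a* were also the only 2 of the 6 past 1.5-fold, 1 in each direction, while 25.6% of the table was higher and 26.6% lower by that much. With 1 FPKM added to both groups, the shares of genes with a smaller change were 12.9% for *Tob1*, 36.8% for *Ccng2*, 45.2% for *Cdkn2d*, 57.4% for *Rbl1*, 61.2% for *Cdkn1c* and 80.7% for *Depdc1a*, so that *Depdc1a* and not *Cdkn1c* stood highest. By mean level, 5 of the 6 genes were above the median of the table (6.36 FPKM), and *Cdkn1c* was below it.

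**Figure D2:**
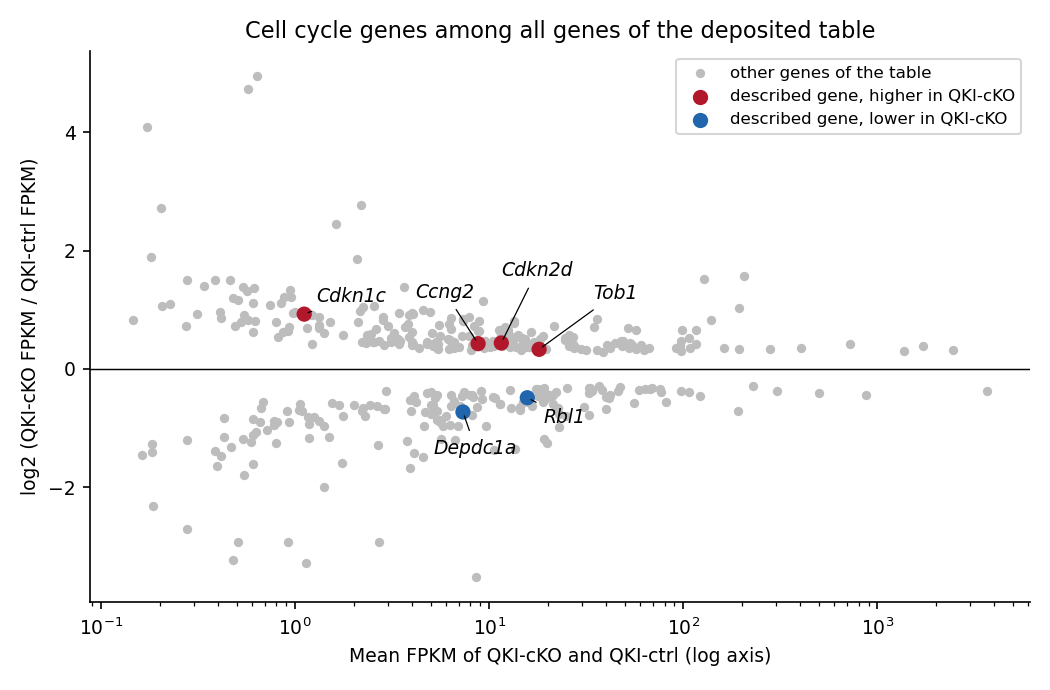
Log2 ratio of QKI-cKO over QKI-ctrl FPKM (y axis) against the mean FPKM of both groups (x axis, log scale) for the 394 genes with a value above 0 in each group, 1 point per gene. The 6 described genes are marked in red (higher) and blue (lower), and *Tob1* (log2 ratio 0.33) lies at the inner edge of the higher genes. The band without points around 0 is there because the table holds only genes that the authors marked as different.

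The other genes of the cell cycle were taken from 8 lists by role, 154 genes in all, that were written with results of the table known. Only these 6 were in the table (3.9%), and 0 of the other 148 had a value. Of all 21674 annotated protein-coding genes, expressed in MuSCs or not, 327 (1.51%) were found in the table by symbol. This count misses genes listed there under newer names, such as *H2ax*. Most genes of any kind thus had no value there. This holds for all 25 genes of the list of cell cycle cyclins, CDKs and their direct regulators, *Ccnd1*, *Ccnb1*, *Cdk1* and *Cdk4* among them. It holds also for 10 activator E2Fs and mitotic transcription factors, such as *E2f1* and *Foxm1*, for 29 genes of DNA replication, such as *Mcm2* and *Pcna*, and for 59 of 60 genes of mitosis, such as *Mki67*, *Plk1* and *Top2a*. Of the 12 genes of pocket proteins and the DREAM complex, *Rbl1* was listed and *Rb1* and *Rbl2* were not. A gene not in the table was not marked as different by the authors or was not tested, or, for *Ccni2*, its symbol is not in the annotation used here, and no level can be given for it, so its absence does not show that it was unchanged. A close relative of *Depdc1a*, *Depdc1b*, was among the genes without a value.

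**Figure D3:**
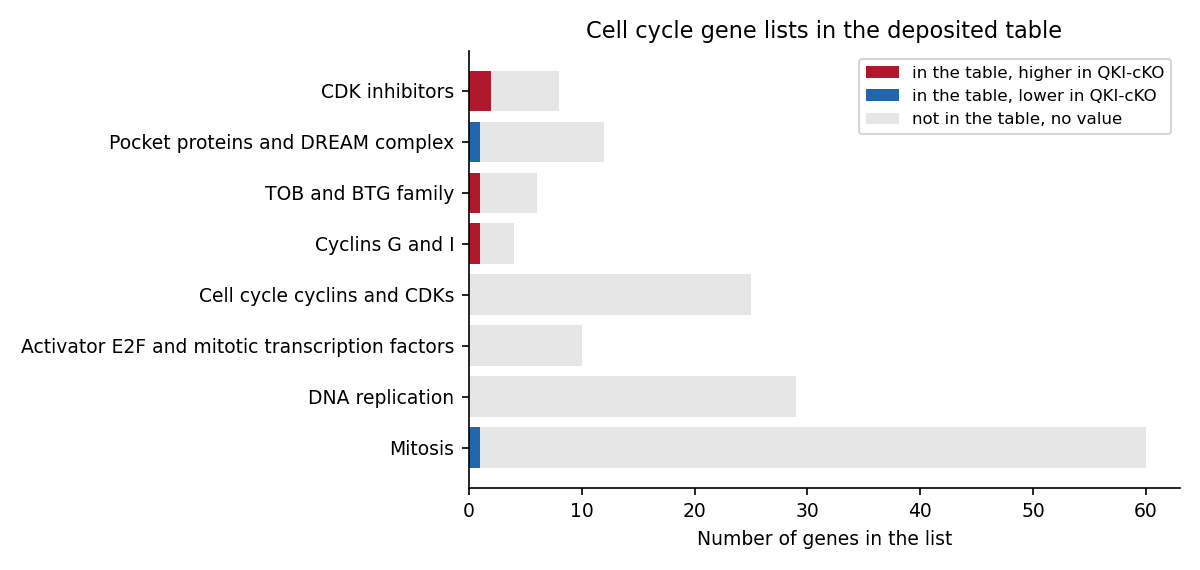
Number of genes of each of the 8 cell cycle lists (x axis) that the table gives as higher (red) or lower (blue) in QKI-cKO or does not hold (grey). The 4 higher genes belong to the lists of CDK inhibitors, the TOB and BTG family and cyclins G and I. The grey bars of cell cycle cyclins and CDKs, of E2Fs and of DNA replication hold no coloured part.

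A further list of 31 genes with looser ties to the cell cycle, written with the content of the table known, had 10 genes there, 6 higher and 4 lower. *Dyrk1b*, a kinase known to keep cells in a resting state, was listed at 3.45 FPKM in QKI-cKO and 1.65 FPKM in QKI-ctrl, and its log2 ratio of 1.06 was above that of *Cdkn1c*. *H2ax*, the histone variant phosphorylated at DNA breaks, was listed at 112.7 FPKM in QKI-cKO and 80.8 FPKM in QKI-ctrl. *Septin2*, a filament protein of cytokinesis, was listed at 66.3 FPKM in QKI-cKO and 97.2 FPKM in QKI-ctrl. *Aunip*, whose product binds Aurora kinase A, was listed at 15.8 FPKM in QKI-cKO and 19.97 FPKM in QKI-ctrl. The 6 higher of 10 genes make 60.0%, close to the 57.3% of the whole table. *Hipk2* and *Miip* had log2 ratios of -0.45 and -0.55, and *Id4*, *Cdk19*, *Blcap* and *Ccnl2* had log2 ratios of 0.35 to 0.64.

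**Figure D4:**
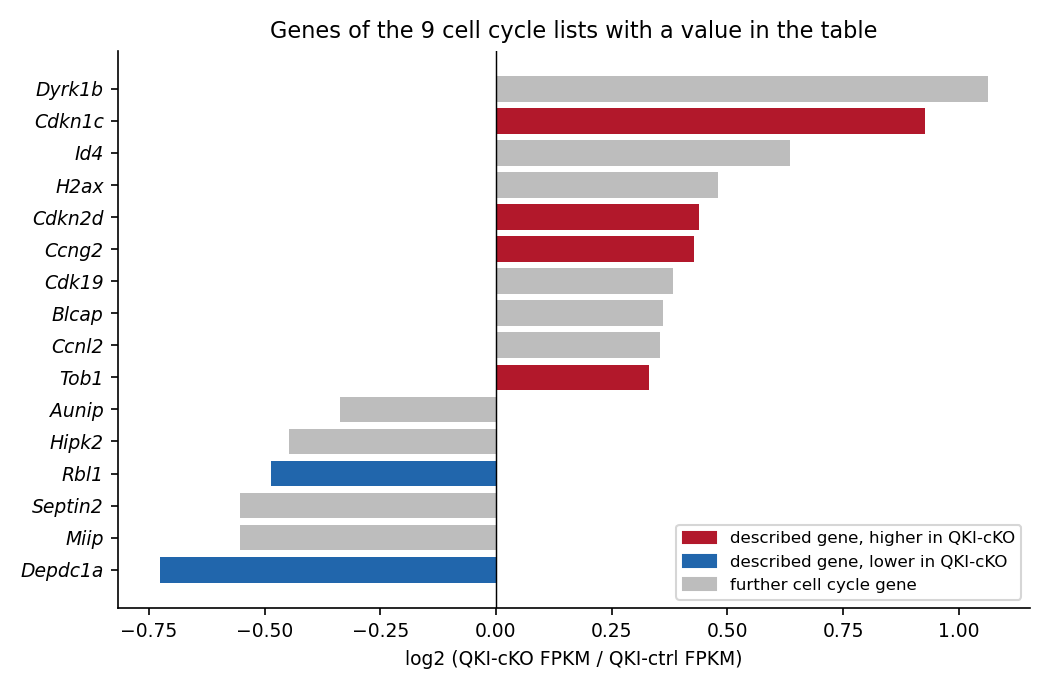
Log2 ratio of QKI-cKO over QKI-ctrl FPKM (x axis) for the 16 genes of the 9 cell cycle lists that are in the table, 1 bar per gene, with no error bars since each group has 1 value. The 6 described genes are in red and blue and the 10 further genes in grey. *Dyrk1b* (1.06) and *Depdc1a* (-0.73) form the ends of the range.

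Markers of differentiated muscle also differed between the groups. Of 41 such markers 16 had values, while 1.51% of all protein-coding genes were found in the table by symbol. QKI-cKO was lower in 15 of the markers, beside 42.7% of all genes in the table, and higher in 1 (*Myom3*). The median log2 ratio of the 16 markers was -1.44. Their levels ran from 0.0620 to 5.90 FPKM in QKI-cKO and from 0.309 to 15.3 FPKM in QKI-ctrl, with sums of 24.5 FPKM in QKI-cKO and 58.2 FPKM in QKI-ctrl. Since the columns were assigned from muscle genes, this direction is not a result of its own. *Myog*, *Ckm* and *Acta1* had no value. Of other cell types, 1 of 14 leukocyte markers (*Laptm5*, 19.9 FPKM in QKI-cKO and 12.9 FPKM in QKI-ctrl) and 1 of 8 Schwann cell markers (*Ngfr*, 10.2 FPKM in QKI-cKO and 5.53 FPKM in QKI-ctrl) were listed, and 0 of 10 endothelial and 0 of 10 fibro-adipogenic markers. *Ptprc* and *Sox10*, which define leukocytes and Schwann cells, had no value, which does not show whether they were expressed. The sort gated against the leukocyte proteins CD45 and CD11b. The part of these markers in the levels of the cell cycle genes was not tested.

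The promoters of the lower genes were examined because *Rbl1* and *Depdc1a* are known as cell cycle-dependent genes. RefSeq promoter windows on GRCm38.p6, 250 bases before to 50 after the start, matched 5 of the 6 genes, without *Cdkn1c*. They were searched on both strands for E2F sites (TTTCGCGC, TTTGGCGC, TTTCCCGC or TTTGCCGC), the CHR (TTTGAA or TTCGAA), a FOXO site (TGTTTAC) and an E-box (CAGCTG). The E2F and CHR letters do not overlap each other in these windows. The 120 bases before each start are shown with E2F and CHR matches in capitals, for *Rbl1* at chr2:157204535-157204654 on the minus strand and for *Depdc1a* at chr3:159495313-159495432 on the plus strand.
Rbl1: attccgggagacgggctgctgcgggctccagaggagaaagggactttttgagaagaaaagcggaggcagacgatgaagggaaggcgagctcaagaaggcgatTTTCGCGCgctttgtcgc
Depdc1a: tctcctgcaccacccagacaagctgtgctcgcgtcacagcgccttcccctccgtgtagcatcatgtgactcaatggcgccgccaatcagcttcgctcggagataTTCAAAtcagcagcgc

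In *Rbl1* the E2F letters TTTCGCGC begin 18 bases before the start, and 2.26% of 32851 promoter windows hold any of the 4 E2F forms. In *Depdc1a* the CHR letters TTTGAA lie on the opposite strand and begin 16 bases before the start, and 19.2% of windows hold a CHR form. *Rbl1* also had 1 E-box, found in 16.3% of windows. *Cdkn2d*, *Ccng2* and *Tob1* had no match to any of these letters, nor did any of the 5 genes to the FOXO letters, which 3.65% of windows hold. A match is a run of letters and not a measured site, and the windows without one say nothing about the factors.

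The QKI core motif, ACTAAC or ACTAAT in DNA letters, was searched in the longest protein-coding GENCODE vM21 transcript of each gene, on the sense strand. In the 3′ UTR it occurred once in *Tob1*, 296 bases after the stop codon, and in none of the other 5 genes. Of all 20965 protein-coding genes with a 3′ UTR, 31.8% have at least 1 such motif there. In the coding sequence it occurred once in *Ccng2* and at 2 places in *Rbl1*. *Cdkn1c*, *Cdkn2d* and *Depdc1a* held none in any exon, and 43.6% of protein-coding genes hold at least 1. None of the 4 motifs was followed within 1 to 20 bases by the shorter element TAAC or TAAT that a full QKI response element has. Such a pair is present in an exon of 9.98% of protein-coding genes, so most genes lack one. Introns were not searched, and the study found QKI response elements in introns beside most alternatively spliced exons. A gene without a motif here can therefore still hold one in an intron. The motifs are shown in capitals with the bases around them, for *Tob1* at chr11:94215014-94215039, for *Ccng2* at chr5:93269315-93269340 and for *Rbl1* at chr2:157175578-157175603 and chr2:157167331-157167356.
Tob1, 3′ UTR: aaaaattggcACTAATaagtgggttt
Ccng2, coding: aagaagtttaACTAACttctttggat
Rbl1, coding, first: tttggcttggACTAATaattctgcac
Rbl1, coding, second: ctgcccagtcACTAATtggtacttct

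The genes of the table with the most similar pair of values were found for each gene by the distance of log2 FPKM over the 2 pooled values, among 331 genes without predicted ones. The closest were *Gzme* for *Cdkn1c* (distance 0.19), *Btbd2* for *Cdkn2d* (0.03), *Plxdc2* for *Ccng2* (0.12), *Akr7a5* for *Tob1* (0.07), *Mfsd2a* for *Rbl1* (0.05) and *Mnd1* for *Depdc1a* (0.10). *Mnd1*, a gene of meiotic recombination, was listed at 5.55 FPKM in QKI-cKO and 8.52 FPKM in QKI-ctrl. With only 2 values per gene, such closeness means a like level and a like ratio in these pools and no more.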

How the data were processed

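Polyadenylated RNA was sequenced from 3 QKI-cKO (KO) and 3 QKI-ctrl (WT) samples, grouped by the labels. The authors trimmed reads with Trimmomatic, aligned them to mm10/GRCm38 with STAR and compared groups with the Cufflinks suite. The deposited FPKM values, 1 per group, were scaled by the authors across libraries by geometric means, and only genes marked as significant were kept. The columns are named only first and second; the second was taken as QKI-cKO because the muscle genes that the study gives as down are lower there. The authors' own fold changes, test statistics, p-values and q-values were not used, and 0 columns of single samples were left unused. Start positions in the table count from 0 and were raised by 1; all 6 loci then equalled those of GENCODE vM21.

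Ratios are QKI-cKO over QKI-ctrl FPKM without a pseudocount. Genes were ranked by absolute log2 ratio among those above 0 FPKM in both groups, and gene lists were counted by symbol. By rule the text names the 6 genes, *Qk*, the cell cycle list genes in the table, and the nearest gene to each of the 6 (predicted genes left out); cell type markers, genes without a value, overlapping genes and neighbours are named outside the rule, with their values known. The genes and lists were chosen with earlier results of these data known. No test was run, since there is no value per replicate. Ratios and the promoter motif search, with the CHR letters TTTGAA, were checked on simulated data. The QKI motif counts were not checked in this way. No protein sequences were used here. Alternatives were pseudocounts of 0.1 and 1 FPKM, a minimum of 1 FPKM, a 1.5-fold limit, no predicted genes, and other sequence windows and motifs. Python 3.11.15, pandas 2.3.3, numpy 2.4.6 and matplotlib 3.10.9 were used.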

Additional observations from a re-analysis of the deposited data

How the results depend on the processing

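The direction of all 6 genes was the same with pseudocounts of 0.1 and 1 FPKM, and a minimum of 1 FPKM in both groups left out only *Cdkn1c*, whose log2 ratio was 0.48 with 1 FPKM added, below the size of that of *Depdc1a* (-0.64). With that pseudocount, 45.2% of genes changed less than *Cdkn2d*, 12.9% less than *Tob1* and 57.4% less than *Rbl1*. With a 1.5-fold limit, 1 gene of the 8 cell cycle lists was higher and 1 lower, beside 102 and 106 of the table. The QKI core motif occurred in 3 of the 6 genes over all exons, and with the shorter element after it in 0. No paired analysis was possible because the table gives 1 pooled value per group, and for the same reason no replicate could be left out. Without counts or values per replicate, neither sampling error nor spread limits could be given for any ratio.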

Other observations

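Within 1 Mb of the 6 genes lay 4 other genes of the table. *Pde4a*, a cyclic AMP phosphodiesterase gene 75162 bases from *Cdkn2d*, was listed at 4.03 FPKM in QKI-cKO and 2.90 FPKM in QKI-ctrl, the same direction as *Cdkn2d*. *Spag9*, 85369 bases from *Tob1*, was listed at 17.5 FPKM in QKI-cKO and 24.1 FPKM in QKI-ctrl, the opposite direction to *Tob1*. *Blcap* and *Scand1*, near *Rbl1*, had log2 ratios of 0.36 and 0.49, opposite to that of *Rbl1*. *Cdkn1c*, *Ccng2* and *Depdc1a* had no other gene of the table within that distance.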
